A study of Mus musculus with 4 samples.

Results

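Expression of 10 genes of the JAK-STAT pathway was followed in leukemic blasts taken from the spleen and the blood of 2 mice. The genes were the kinases Jak1 and Jak2, the transcription factors Stat3, Stat5a and Stat5b, and the feedback and target genes Cish, Socs1, Socs2, Socs3 and Pim1. They were chosen by name, as all probe sets that the platform annotation pairs with 1 of these genes alone, and they are 10 of the 18193 genes that the array's annotation names in this way. The 10 genes held 26 probe sets. For each gene the probe set with the highest mean log2 value over the 4 arrays gave the main value, and the others are described beside it.

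The groups were blasts of the T6(6) leukemia sorted as GFP+ from the spleen of mouse 1 and mouse 2, and blasts sorted in the same way from the peripheral blood of the same 2 mice, with 1 Affymetrix array for each. In all 4 samples the leukemia had arisen from fetal progenitors with the mutant Gata1 allele named Gata1s, after insertional mutagenesis with a retrovirus that carried the GFP reporter used for the sort. The cells were primary, came straight from the animals and had no treatment. Strain and age are not given in the labels, and both mice carry 1 leukemia designation, so the spread between replicates is that between 2 animals with the same named leukemia and may not reflect independent leukemias.

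JAK kinases sit on the cytoplasmic tails of cytokine receptors, such as the one for erythropoietin that drives red cell growth. When the receptor binds its ligand the kinases phosphorylate each other, the receptor and STAT proteins, which pair up, enter the nucleus and bind DNA. Among the genes that STATs switch on are Cish and the Socs genes, whose proteins damp the same receptors, and the survival kinase Pim1. Activating JAK mutations are known in human megakaryoblastic leukemia of Down syndrome, in which a short form of GATA1 is also found.

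Median intensities of the 4 arrays lay between 104 and 111. Genes of megakaryocytes were present on each array. The intensities of the 8 megakaryocyte markers with a probe set summed to 18835 and 20491 in spleen, against 16369 and 16405 in blood, while Itgb3 was below 0 in blood of mouse 2. The samples were bulk RNA of sorted cells, so a lower share of cells with a transcript and less transcript per cell cannot be told apart.

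The comparison of spleen with blood asked how the pathway's genes differ between blasts at the 2 sites. No member passed the test over all genes. Cish, Stat3, Jak2 and Jak1 were lower in both spleen arrays than in both blood arrays, and Stat5a and Stat5b were higher in both, with spleen over blood ratios of the 6 genes between 0.744 and 1.17. Socs1, Socs2, Socs3 and Pim1 had overlapping groups. All 10 genes had a mean at or above the brightness filter, an intensity of 106, and all 10 were tested, but Socs3 reached it through 1 array.

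With limma, which fits a linear model to each gene and shares the spread across genes, 0 of 10 members had an adjusted p under 0.05, and 0 of the 11614 tested genes did (0.0%). At an unadjusted p under 0.05 there were 1443 genes in all. Of the members, Cish and Stat3 had an unadjusted p under 0.05 and were lower in spleen, as were 4.31% of all tested genes. Lower in spleen in both mice were 6 of 10 members, against 25.1% of the tested genes, and higher in both mice were 2 of 10, against 38.5%. Of the 6, Jak1 and Socs2 differed in mouse 1 by only -0.0021 and -0.0093, and Pim1 in mouse 2 by only -0.013. Array medians were also lower in spleen, at 108 and 104, against 111 and 109 in blood. The counts were not redone with centred arrays. Groups that did not overlap were found with spleen lower for 4 members, against 17.6% of the tested genes, and with spleen higher for 2, against 27.5%. The median log2 difference, spleen minus blood, of the members was -0.12, and that of all tested genes was 0.03. These are counts over 10 genes chosen with earlier results known, and they carry no test.

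**Figure D1:**
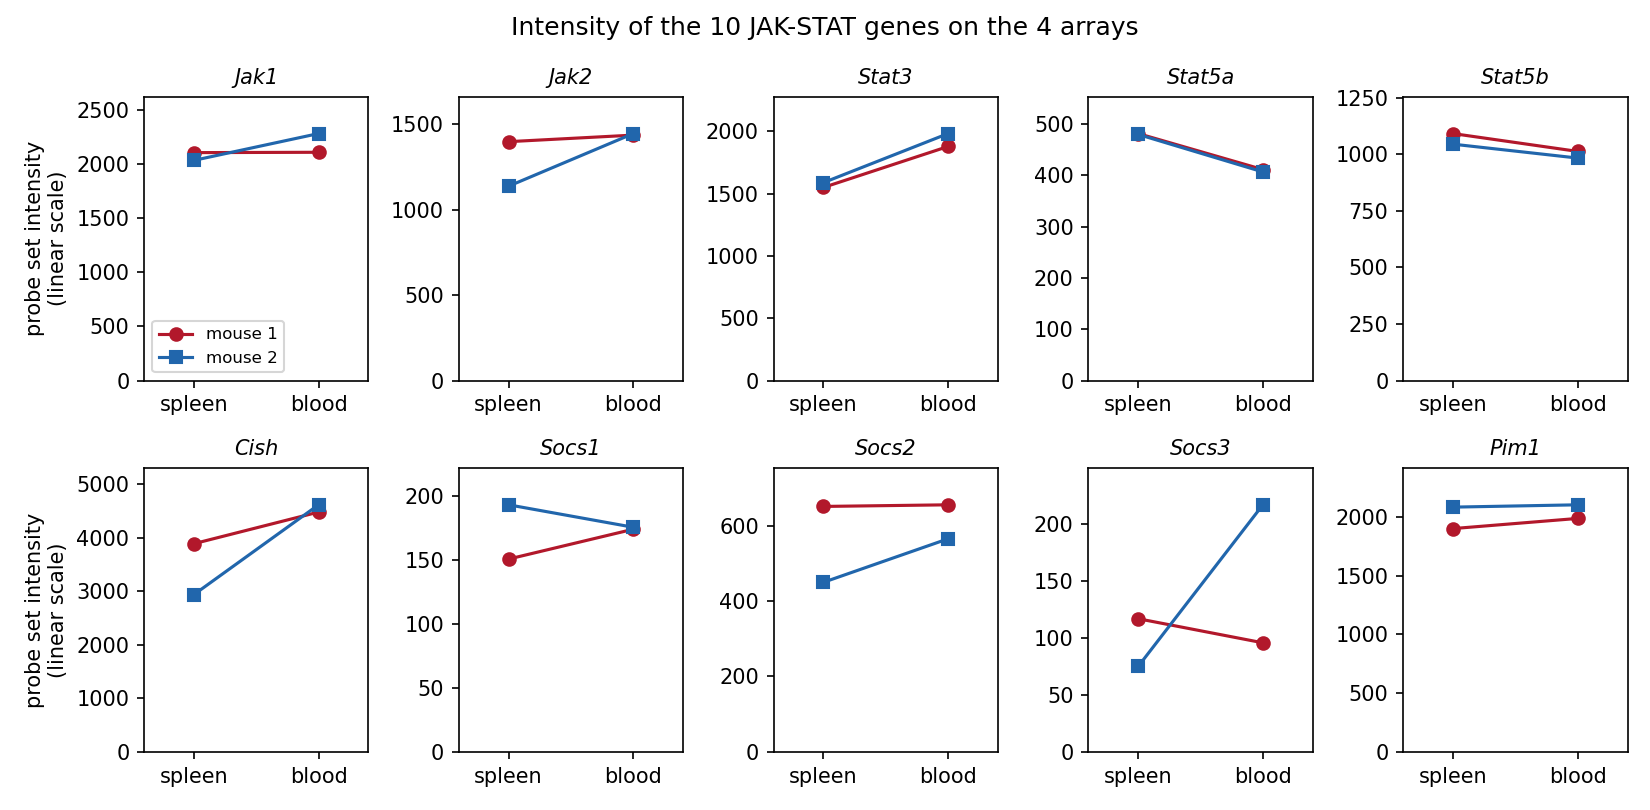
Probe set intensity (linear scale, from 0) of each of the 10 genes in spleen (left) and blood (right), 1 point an array, with a line joining the arrays of 1 mouse (circles, mouse 1; squares, mouse 2). Spleen lies below blood in both mice for Cish, Stat3 and Jak2, and also for Jak1, Socs2 and Pim1, which are almost level in 1 mouse. It lies above blood in both for Stat5a and Stat5b. The mice go in opposite directions for Socs1 and Socs3.

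The receptor kinases came first in the pathway. Jak1, which serves receptors of the interferons and of the interleukin 6 family among others, had intensities of 2104 and 2032 in spleen of mouse 1 and mouse 2, against 2107 and 2280 in blood. Both spleen values were lower, but in mouse 1 the arrays differed by a log2 value of only -0.0021. The estimate was -0.08 ± 0.11 (SE, 2 arrays per tissue, on the log2 scale of intensity plus 16), with an adjusted p of 0.799 from limma. It was -0.14 without blood replicate 1, -0.03 without blood replicate 2, -0.17 with quantile normalization, -0.04 with centred arrays and -0.03 with the mean of all probe sets. Its other probe sets averaged 1170 and 269. Both were higher in spleen of mouse 1, by 0.04 and 0.26, and lower in spleen of mouse 2, by -0.20 and -0.10.

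Jak2, the kinase of the erythropoietin receptor, had intensities of 1398 and 1138 in spleen, against 1436 and 1445 in blood. The spleen array of mouse 2 was the low one, and the 2 blood arrays were almost equal. The difference was -0.19 ± 0.14, with a 95% confidence interval, not adjusted, from -0.53 to 0.15 and an adjusted p of 0.602 from limma. It was -0.04 without spleen replicate 2 and -0.34 without spleen replicate 1. A further Jak2 probe set, with a mean of 589, was lower in spleen by -0.17 in mouse 1 and -0.14 in mouse 2.

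Stat3, the transcription factor used by the interleukin 6 family, had intensities of 1551 and 1590 in spleen, against 1880 and 1983 in blood. The groups did not overlap and the mice gave like differences, -0.27 and -0.32. The estimate was -0.30 ± 0.11, a spleen over blood ratio of 0.815, with a 95% confidence interval, not adjusted, from -0.57 to -0.02. Its unadjusted p was 0.0375, and its adjusted p was 0.373 from limma. Leaving out any 1 array moved the estimate no further than from -0.33 to -0.26. Of all tested genes 7.15% had a lower difference than Stat3.

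The 3 other Stat3 probe sets were also lower in spleen on average. The second brightest, with a mean of 1067, differed by -0.12 in mouse 1 and -0.24 in mouse 2. A dimmer one, with a mean of 151, differed by -0.30 and -1.20. The remaining one, with a mean of 176, differed by -0.29 in mouse 1 and 0.06 in mouse 2, so 3 of the 4 were lower in both mice.

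Stat5a and Stat5b are neighbouring, closely related genes that carry the signals of the erythropoietin, interleukin 3 and growth hormone receptors. Stat5a had intensities of 482 and 480 in spleen, against 412 and 407 in blood. The arrays of each tissue lay within a few units of each other and the tissues did not overlap. The difference was 0.22 ± 0.11, a ratio of 1.17, with a 95% confidence interval, not adjusted, from -0.04 to 0.49 and an adjusted p of 0.458 from limma. Stat5b had intensities of 1092 and 1045 in spleen, against 1013 and 983 in blood. Both spleen values were above both blood values, by 0.11 in mouse 1 and 0.09 in mouse 2. The estimate was 0.10 ± 0.11 with an adjusted p of 0.756 from limma. It was 0.03 with quantile normalization and 0.18 with the mean of all probe sets.

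Each Stat5 gene had a further, dim probe set, with a mean of 110 for Stat5a and of 128 for Stat5b. They differed by 0.06 and -0.05 in mouse 1 and by 0.65 and 0.57 in mouse 2. All 4 Stat5 probe sets bear the suffix that Affymetrix gives to sets shared by transcripts of 1 gene. How far their probes could bind transcripts of the other Stat5 gene was not tested.

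Cish, which encodes the cytokine-inducible SH2 protein that binds activated receptors and blocks STAT5, had the largest range among the bright members. Its intensities were 3888 and 2937 in spleen of mouse 1 and mouse 2, against 4479 and 4614 in blood. Both spleen arrays lay below both blood arrays, and spleen of mouse 2 was lowest. The difference was -0.20 in mouse 1 and -0.65 in mouse 2. The estimate was -0.43 ± 0.16, a ratio of 0.744, with a 95% confidence interval, not adjusted, from -0.81 to -0.04. Its unadjusted p was 0.0364, and its adjusted p was 0.373 from limma. Without spleen replicate 2 the difference was -0.22, and without spleen replicate 1 it was -0.63, with adjusted p from 0.191 to 0.868 when each array was left out. Cish had 1 probe set, so no further one could be set beside it. Of all tested genes 3.06% had a lower difference.

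The promoter windows of Cish and Socs3 are shown because they were the 2 members whose window holds the STAT-type motif TTCNNNGAA, the spaced inverted repeat that STAT dimers bind. The motif reads the same on both strands. The windows run from 250 bases before to 50 after the gene's start in RefSeq, build GRCm38.p6, and the matches are in capitals. Windows were listed for 9 of the 10 genes, Socs2 being the other. The 9 genes had 12 windows, of which 2 held a match. Over all 32851 windows listed, 8.3% held at least 1 match and 0.457% at least 2.
Cish, chr9:107296409-107296708, plus strand: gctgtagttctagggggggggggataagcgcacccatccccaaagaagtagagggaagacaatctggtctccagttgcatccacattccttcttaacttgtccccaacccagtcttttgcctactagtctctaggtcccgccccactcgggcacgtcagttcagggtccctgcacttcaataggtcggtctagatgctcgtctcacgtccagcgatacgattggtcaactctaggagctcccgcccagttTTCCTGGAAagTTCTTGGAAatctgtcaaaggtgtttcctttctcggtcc
Socs3, chr11:117969317-117969616, minus strand: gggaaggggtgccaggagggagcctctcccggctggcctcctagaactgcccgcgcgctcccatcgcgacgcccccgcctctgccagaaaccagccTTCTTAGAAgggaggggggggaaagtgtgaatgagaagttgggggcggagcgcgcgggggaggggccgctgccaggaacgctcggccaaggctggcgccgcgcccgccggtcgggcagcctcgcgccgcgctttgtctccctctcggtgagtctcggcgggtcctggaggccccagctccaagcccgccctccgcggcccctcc

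The Cish window held 2 matches, the first beginning at base 1 and the second at base 12 of the transcript as RefSeq starts it. The Socs3 window held 1, which began 154 bases before the start. A match is a stretch of letters, and the arrays give no measure of STAT binding.

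Socs1, whose protein inhibits JAK kinases directly, had intensities of 150 and 193 in spleen, against 174 and 175 in blood. The spleen arrays lay on either side of the blood arrays, with a difference of -0.19 in mouse 1 and 0.13 in mouse 2. The estimate was -0.03 ± 0.14 with an adjusted p of 0.943 from limma, and its sign turned with quantile normalization and with centred arrays.

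Socs2, a STAT5 target known for restraining growth hormone signalling, had intensities of 651 and 450 in spleen, against 655 and 565 in blood. The tissues overlapped, and spleen of mouse 2 was the low array. The difference was -0.0093 in mouse 1 and -0.32 in mouse 2. The estimate was -0.16 ± 0.19 with an adjusted p of 0.763 from limma, and it was 0.09 without spleen replicate 2. With the mean of all its probe sets it was -0.07. Leaving out spleen of mouse 1 gave -0.42, leaving out blood of mouse 1 gave -0.06, and leaving out blood of mouse 2 gave -0.27. Of the 6 Socs2 probe sets 3 had a mean above the brightness filter, and these 3 were lower in spleen in both mice. The 3 dim ones went both ways, with means of 68.3, 65.6 and 27.8.

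Socs3, an inhibitor of interleukin 6 type and granulocyte colony stimulating factor receptors, was dim. Its main probe set had intensities of 117 and 75.1 in spleen, against 95.9 and 217 in blood. Blood of mouse 2 was the highest array and spleen of mouse 2 the lowest, and the difference was 0.25 in mouse 1 and -1.36 in mouse 2. The estimate was -0.55 ± 0.36 with an adjusted p of 0.568 from limma. Leaving out spleen of mouse 2 gave -0.28, leaving out blood of mouse 2 gave -0.02, and leaving out blood of mouse 1 gave -1.08. The suffix of this probe set is the one Affymetrix gives to sets whose probes may bind other transcripts. A second set of that kind, with a mean of 92.8, differed by 0.35 and -1.05. The third, without that suffix and with a mean of 90.7, differed by -0.17 and -0.18.

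Most tested granulocyte, macrophage and monocyte, and T and NK cell markers were lower in spleen of mouse 2, as Socs3 was. In each mouse all 8 tested granulocyte markers were lower in spleen, and the median of their log2 differences was -0.34 for mouse 1 and -3.42 for mouse 2. Over all tested genes 25.1% were lower in both mice. Mmp8 reached the brightness filter, an intensity of 106, only through blood, at 156 and 590, against 93.5 and 20.3 in spleen. Ltf and Mmp9 were below it in spleen of mouse 2, at 33.4 and 80.9. Markers that pass the filter through blood alone come out lower in spleen by selection. The 10 granulocyte markers with a probe set summed to 4176 and 1188 in spleen, against 6886 and 17238 in blood, and Camp was below 0 in spleen of mouse 2. Macrophage and monocyte markers summed to 3844 and 2678 in spleen, against 3033 and 6504 in blood. In mouse 2, 5 of 6 tested markers were lower, and in mouse 1, 2 of 6. Of these markers Mpeg1 and Adgre1 were below the brightness filter in spleen of mouse 2, at 24.7 and 69.4. They were also below it in blood of mouse 1, at 71.8 and 85.9. C1qa was below 0 in spleen of mouse 2 and in both blood arrays. The untested C1qa, C1qb and C1qc were higher in spleen of mouse 1, by 3.21, 2.63 and 2.43. In mouse 2, C1qb and C1qc differed by -0.03 and 0.72. T and NK cell markers, with none at 0, summed to 7579 and 4867 in spleen, against 6584 and 9079 in blood. Gzma and Nkg7 made up most of these sums. Gzma had 2757 and 171 in spleen, against 1338 and 3486 in blood. Nkg7 had 3556 and 3590 in spleen, against 3675 and 4159 in blood. Of 8 tested, 7 were lower in mouse 2 and 4 in mouse 1, which were Cd3e, Cd3g, Cd4 and Nkg7. Spleen of mouse 2 was the lowest array for Socs3, and also for Cish, Jak1, Jak2 and Socs2. The part of RNA from such cells in the values of these genes was not tested. B cell markers summed to 468 and 418 in spleen, against 412 and 378 in blood, with 1 of them tested. The tested one, Pax5, made up most of these sums, at 350 and 296 in spleen, against 291 and 250 in blood. Among the dim ones Ms4a1 was lower in spleen in both mice, by -0.02 and -0.39. Cd79b was higher in both, by 0.03 and 0.18, and Cd79a differed by -0.08 and 0.14.

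Immediate early genes and mitosis genes also differed with tissue. Spleen was lower in each mouse for all 8 tested immediate early genes, and the 10 on the list summed to 4983 and 3615 in spleen, against 9170 and 10782 in blood. Of these Fos reached the brightness filter, an intensity of 106, only through blood, at 299 and 855, against 67.7 and 3.3 in spleen. All 9 tested mitosis genes were higher in each mouse and summed to 15631 and 17180 in spleen, against 9892 and 10328 in blood. The part of either response in the differences of Cish and Stat3 was not tested.

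Pim1, a serine/threonine kinase that promotes survival and is a STAT target, had intensities of 1900 and 2083 in spleen, against 1987 and 2102 in blood. The tissues overlapped and the estimate was -0.04 ± 0.12, with an adjusted p of 0.913 from limma and a sign that turned with centred arrays. Its other probe set was also bright, with a mean of 1288, and gave a larger difference. That set had intensities of 1184 and 1144 in spleen, against 1414 and 1411 in blood, and differed by -0.25 in mouse 1 and -0.30 in mouse 2. The 2 probe sets of Pim1 thus disagreed on the size of the difference.

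**Figure D2:**
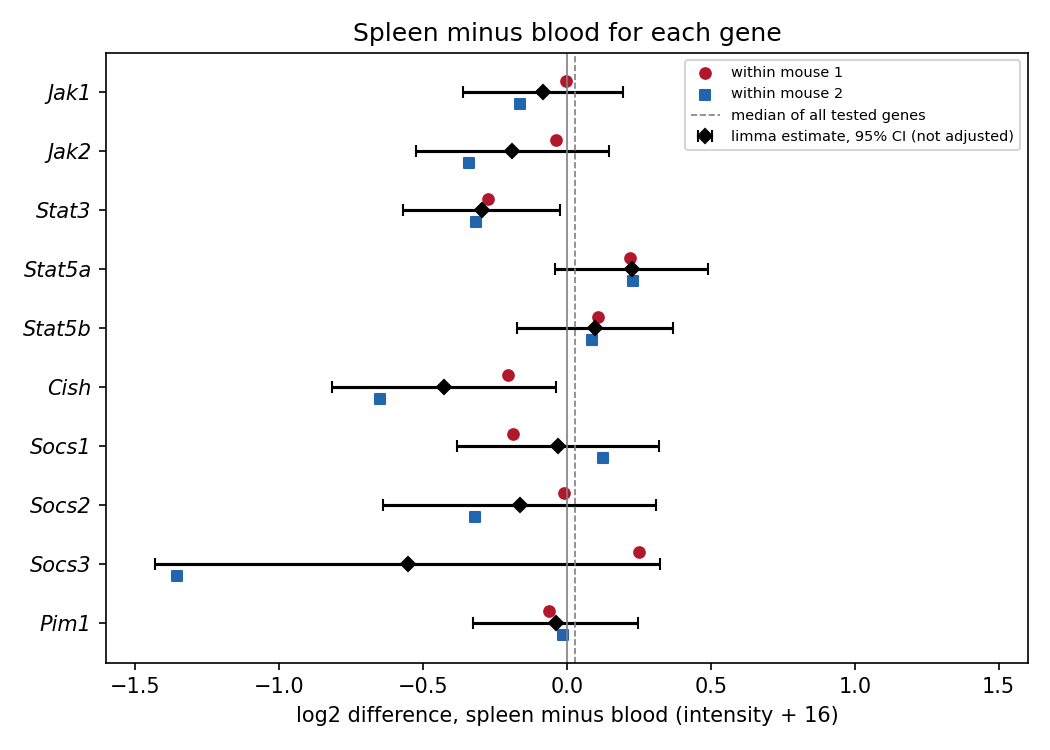
Log2 difference of spleen minus blood for each gene (diamonds, limma estimate with its 95% confidence interval, not adjusted; circles, within mouse 1; squares, within mouse 2), with the median of all tested genes as a dashed line. The intervals of Cish and Stat3 lie below 0, those of the other 8 genes span it, and the mice differ most for Socs3, at 0.25 and -1.36.

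**Figure D3:**
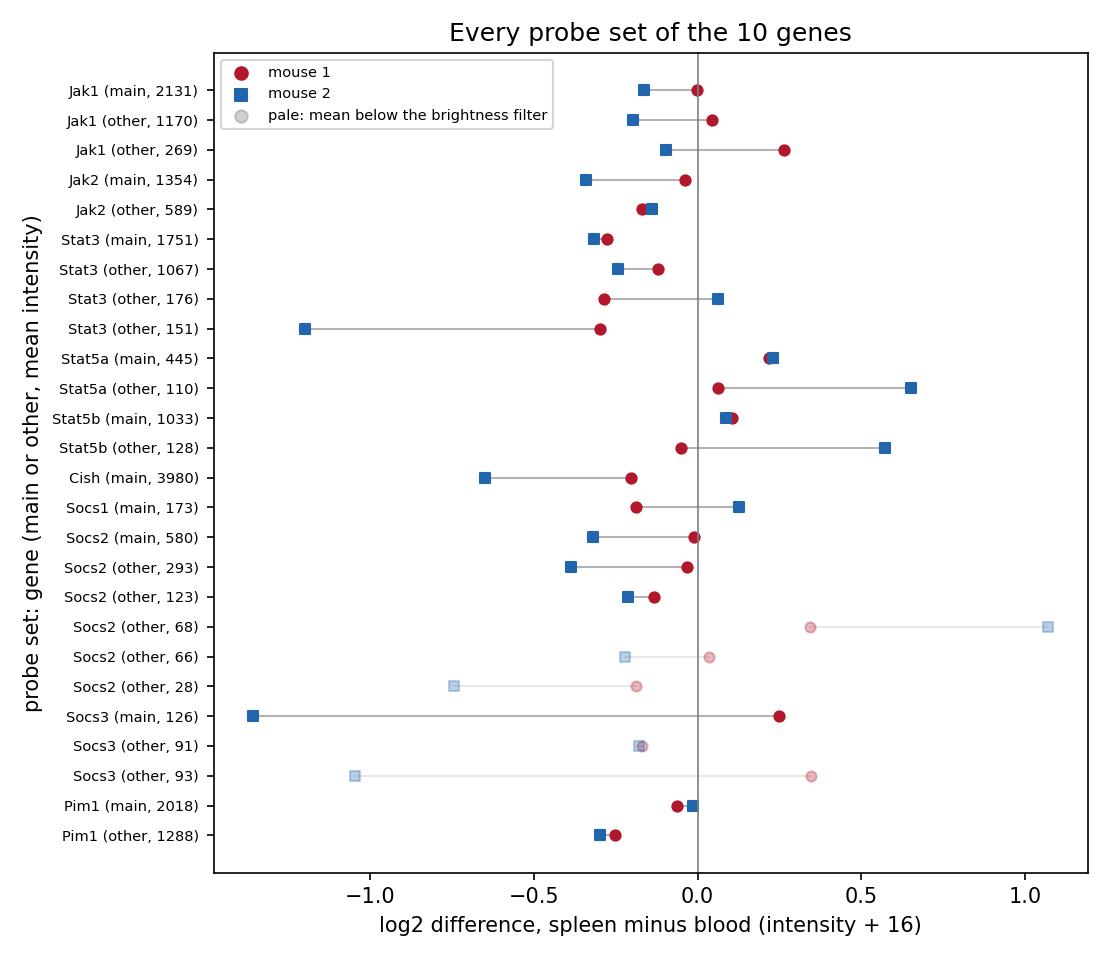
Log2 difference of spleen minus blood within mouse 1 (circles) and mouse 2 (squares) for all 26 probe sets, with the mean intensity beside each gene and pale symbols for the 5 sets below the brightness filter. Of the 21 sets above the filter, 12 were lower in spleen in both mice and 3 higher in both. These sets are repeated measures of 10 genes. With 1 set a gene, 25.1% of all tested genes were lower in both mice and 38.5% higher.

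The difference between the animals has no test, because each side is 1 mouse. In spleen, mouse 2 minus mouse 1 was -0.40 for Cish, -0.52 for Socs2, -0.29 for Jak2 and 0.33 for Socs1. In blood the same difference was 0.04 for Cish, -0.21 for Socs2, 0.0089 for Jak2 and 0.01 for Socs1. The mice were thus closer in blood for these 4 genes, and also for Pim1 and Stat5b. For Jak1 and Stat3 they were closer in spleen, at -0.05 and 0.04, against 0.11 and 0.08 in blood. Socs3 differed by -0.55 in spleen and by 1.06 in blood. Stat5a differed by -0.0049 in spleen and by -0.02 in blood, the least of the 10 genes taken over both tissues.

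The other pathway genes were 54 in 4 lists, of which 50 had a probe set used here and 42 were tested. None of the 42 passed the test over all genes. In both mice 12 were higher in spleen and 14 lower, and 16 went in opposite directions. Over all tested genes 38.5% were higher in both mice and 25.1% lower. Among the remaining kinases and STATs 3 of 5 were lower in both mice and 1 higher. Tyk2, a JAK kinase of interferon receptors, had intensities of 313 and 393 in spleen, against 412 and 497 in blood, and a difference of -0.35 ± 0.16 that its other probe set did not share in direction. Stat6, the interleukin 4 factor, had 515 and 524 in spleen, against 611 and 644 in blood. Both spleen values of Stat6 lay below both blood values. Stat4, the interleukin 12 factor, was dim, with 134 and 183 in spleen, against 109 and 131 in blood.

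Of 14 tested inhibitors 5 were higher and 4 lower in both mice. The tyrosine phosphatase Ptpn6, which dephosphorylates JAKs, had intensities of 2300 and 2084 in spleen, against 2591 and 3255 in blood, and a difference of -0.40 ± 0.15 (adjusted p = 0.367, limma). Ptpn1, another phosphatase of JAKs, had 1042 and 1015 in spleen, against 1188 and 1401 in blood. Both phosphatases had spleen arrays below blood arrays. Ptpn11, the phosphatase that relays receptor signals to RAS, went the other way, with 4205 and 4224 in spleen, against 3624 and 3352 in blood. Pias2, of the family that inhibits STATs in the nucleus, differed by 0.16 ± 0.11.

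Of 22 cytokine receptor genes 11 were tested, 3 of them higher and 4 lower in both mice. Csf2ra, the binding chain of the GM-CSF receptor, had intensities of 1051 and 829 in spleen, against 1446 and 1613 in blood. Its difference, -0.70 ± 0.15, had an adjusted p of 0.209 from limma, and both of its probe sets were lower. Csf2rb2, a beta chain of the mouse interleukin 3 receptor, had 1763 and 1475 in spleen, against 2072 and 2188 in blood. The erythropoietin receptor Epor had 878 and 1220 in spleen, against 847 and 1186 in blood. Its arrays thus separated by mouse and not by tissue, with mouse 2 at 1220 and 1186 and mouse 1 at 878 and 847. Ghr, the growth hormone receptor, differed by 0.07 ± 0.11.

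Of 12 tested targets 3 were higher and 3 lower in both mice. Ccnd1, cyclin D1, had intensities of 284 and 243 in spleen, against 172 and 165 in blood, with a difference of 0.60 ± 0.13 (adjusted p = 0.201, limma), and its 3 probe sets were all higher. Pim2, a relative of Pim1, had 336 and 316 in spleen, against 246 and 203 in blood, and a difference of 0.51 ± 0.13 (adjusted p = 0.274, limma). The spleen arrays of both genes lay above the blood arrays. Mcl1, a survival protein of the BCL2 family, had 2786 and 2428 in spleen, against 3198 and 3443 in blood, and its 6 probe sets were all lower. Bcl6, a repressor, had 212 and 179 in spleen, against 244 and 227 in blood.

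**Figure D4:**
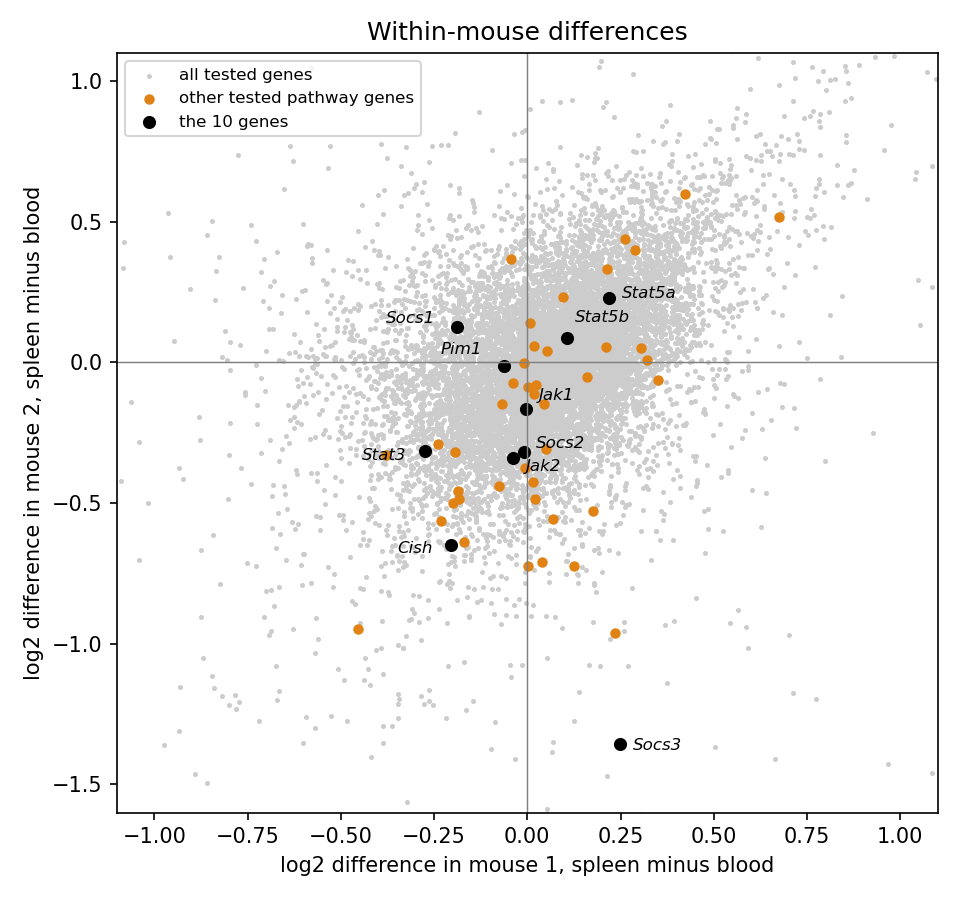
Log2 difference of spleen minus blood in mouse 1 (horizontal axis) and mouse 2 (vertical axis) for all tested genes (grey), the other tested pathway genes (orange) and the 10 genes (black, named). The axes leave out 110 genes with larger differences, and Stat3 and Cish lie in the lower left, where both mice are lower in spleen.

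The genes most like a member over the 4 arrays were taken for the 3 members with the largest range, by the root mean square difference of log2 values centred on each gene's mean. For Socs3 they were Ms4a6d at 0.05, the lysozyme gene Lyz1 at 0.07 and Prss54 at 0.10. After these came the neutrophil gelatinase Mmp9 at 0.10 and the sorting receptor Sorl1 at 0.13. For Cish they were Pkd2l1 at 0.01, Zfand5 at 0.02, Spertl at 0.02, Shcbp1l at 0.02 and Evi2a at 0.03. For Socs2 they were the transcription factor Ikzf2 at 0.0083, Cdipt at 0.01, Ptchd1 at 0.02, Nbeal1 at 0.02 and Tmem219 at 0.02. With 4 arrays this is a description of like patterns.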

How the data were processed

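Per the labels' protocols, total RNA was extracted with Trizol, cleaned on columns and labelled as biotinylated cRNA. The deposited table holds a linear intensity for each probe set, as judged from its values. The authors' probe summary, background step and scaling are not given in the sources used. Of each array 1.60% to 2.17% of values were below 0.

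The log2 of intensity plus 16 was used, with negative intensities raised to 0 first. Of 45101 probe sets 34945 had 1 gene symbol, 932 had several, 9160 were not listed in the platform annotation, and 64 were controls. Symbols were updated by Entrez identifier through a RefSeq table of GRCm38.p6, which held 34741 of them. Each gene was represented by its brightest probe set, and a gene was tested if its mean log2 value was at least the median over probe sets. Spleen was compared with blood across all 11614 genes with limma 3.58.1 in R 4.3.3 (two-sided, tissue as the sole term, Benjamini-Hochberg at 0.05). The fit was run on simulated data with independent noise, no mouse effect and planted differences larger than any member's estimate. That run does not show whether differences as small as the members' would be found. P-values measure the spread between 2 animals a tissue. The number of arrays limits precision.

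The labels give the same mouse for both tissues, so mouse number pairs the arrays. Across genes, which are not independent replicates, mouse 2 minus mouse 1 in spleen and the same difference in blood had a Pearson r of 0.10. Mouse as a block was an alternative, as were other offsets, scalings, filters, the mean of all probe sets, a trended prior and leaving out each array. The members and lists were chosen with earlier results of these data known. Of each pathway list the named genes were the 2 higher and 2 lower in both mice, ranked by the smaller of the differences in mouse 1 and mouse 2, and Epor for level. Some genes of these lists are not reported here. Promoter sequences came from RefSeq tables.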

Additional observations from a re-analysis of the deposited data

Results flagged for a closer look

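In 2 members the difference of spleen minus blood ran in opposite directions in the mice. The difference in mouse 2 minus that in mouse 1 was -1.61 for Socs3 and 0.32 for Socs1 on the log2 scale. Each tissue of each mouse is 1 array, so this was not tested.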

How the results depend on the processing

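Under 13 alternatives, no member passed the test over all genes in any, and 120 of 127 member differences kept their direction. Socs3 was below the filter with the mean of all probe sets, and Socs1 and Socs3 were below the filter at the 75th percentile, so these had no value there. The sign turned for Pim1 with centred arrays (0.0050) and for Socs1 with centred arrays (0.012) and quantile normalization (0.0038). Leaving out 1 array gave a range of -0.10 to 0.027 for Pim1, -0.19 to 0.132 for Socs1 and -0.42 to 0.095 for Socs2. The members with a difference of 1 sign under all their alternatives were Cish, Stat3, Jak1, Jak2, Socs3, Stat5a and Stat5b. With the mean of all probe sets Pim1 differed by -0.16. Over all genes, 0 passed in the reported fit, 40 with the filter at the 75th percentile and 45 with an intensity trend in the prior. Leaving out 1 array gave 0 to 20 genes, the highest without spleen replicate 1. The paired fit, with mouse as a replicate block, also gave 0 genes and 0 members, with 1812 genes at an unadjusted p under 0.05, and it changed no call. Centring the arrays moved the median difference of all genes to 0.07.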
